A study of Mus musculus with 12 samples.

Results

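The neuronal and synaptic genes described here are 45 genes named by symbol: neuron-specific RNA-binding proteins and transcription factors, cytoskeletal and growth proteins of axons, neurofilaments, proteins of the synaptic vesicle and its release machinery, proteins of secretory granules, and membrane proteins of neurons. A gene was taken where an annotated Ensembl locus of the deposited table carried exactly that symbol. This matched 44 of the 45 genes, out of 24394 symbols with an annotated locus. All 44 passed the filter on low values (at least 1 FPKM in at least 3 libraries), as did 12777 genes in all. Elavl3 was found only in a locus merged with a neighbouring gene, so its levels are not analysed here. Its promoter is among those searched for motifs below. Rims1 passed the filter through 4 DNBS libraries alone and Unc13a through 4 saline libraries alone. The filter could keep these 2 genes only because they were high there, so their fold changes and p-values are given as descriptions and support nothing.

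The 12 libraries hold ribosome-bound RNA, measured as FPKM (fragments per kilobase of transcript, normalised to the mapped fragments of a library). Every mouse was a C57BL/6 animal of the genotype Sox10::CreERT2+/- / Rpl22tm1.1Psam/J. In these RiboTag mice a Cre recombinase driven by Sox10 and switched on by tamoxifen puts an HA tag on the ribosomal protein Rpl22, and tagged ribosomes are then pulled down from tissue. All mice had chow with tamoxifen citrate at 400 mg/kg for 2 weeks and plain chow for 1 week. All received daily intraperitoneal injections over 3 days that began 24 hours before an enema of 0.1 ml, and the myenteric plexus of the distal colon was taken 48 hours after the enema. Saline_Vehicle mice had a saline enema and 0.1% DMSO, and DNBS_Vehicle mice had 5 mg of di-nitrobenzene sulfonic acid (DNBS, a hapten that causes colitis) in 50% ethanol and 0.1% DMSO. Saline_GR159897 and DNBS_GR159897 mice had the same enemas with 0.5 mg/kg of GR159897, an antagonist of the neurokinin receptor NK2R, in 0.1% DMSO. Each group had 3 libraries. Ethanol was given only with DNBS, so the effects of the 2 cannot be told apart. By the labels 2 of the 3 DNBS_GR159897 mice were female, against 1 of 3 in every other group.

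Enteric neurons lie in the ganglia of the myenteric plexus, wrapped by enteric glia, and send axons to the muscle and mucosa. At their release sites vesicles are docked by Rab3, Rim and Munc13 proteins and fuse through the SNARE proteins Snap25 and Vamp2, with synaptotagmins as calcium sensors. Peptide transmitters travel in dense-core granules, whose content is sorted and cut with the help of granins and prohormone convertase partners. Several of the genes are not restricted to neurons: granins are also made by enteroendocrine cells of the epithelium, Thy1 by fibroblasts and lymphocytes, Hand2 by mesenchymal cells, and Gap43 by glia that respond to injury.

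Promoter sequences were available for 32 of the 45 genes (RefSeq, GRCm38.p6), and the 250 bases before each RefSeq start were searched on both strands. The RE1 element, through which the repressor REST keeps neuronal genes silent in non-neuronal cells, starts with the core CAGCACC and goes on, after a gap, to a second core, GGACAG. The first of these occurred in the promoters of 5 of the 32 genes (15.6%), against 6.56% of all 27025 genes with a promoter. The matches in these 5 genes are shown because they hold this first core, and the genes are not shown to be REST targets. Each is printed 5′ to 3′ on the strand of the gene (for Tubb3 on the opposite strand), with CAGCACC in capitals.
Dner, chr1:84696351-84696371: ttCAGCACCaaggacaagggc
Nsg2, chr11:32000499-32000519: ttCAGCACCacgctctggctg
Sv2c, chr13:96132660-96132680: tgCAGCACCgaagggaggagg
Syn1, chrX:20921130-20921150: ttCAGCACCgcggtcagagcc
Tubb3, chr8:123411420-123411440: atCAGCACCggcaccgagatc
Nsg2 and Syn1 each held another CAGCACC in the same window. By the GENCODE M21 annotation (GRCm38) Nsg2 starts at chr11:32000463 and Tubb3 at chr8:123411424. The Nsg2 matches lie past that start, inside the gene, and the Tubb3 match reaches past it. In none of the 5 was CAGCACC followed after 2 bases by GGACAG, an arrangement found in 11 of 32851 promoters (0.0335%). GGACAG alone occurred in 25% of the 32 genes and in 21% of all genes.

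Of the other motifs searched, the E-box CAGCTG occurred in 31.2% of the 32 genes and in 14.7% of all genes. The cyclic AMP response core TGACGT occurred in 15.6% and 7.29%, the AP-1 site TGANTCA in 3.12% and 7.82%, and ACAAAG, a core bound by Sox proteins, in 15.6% and 18.6%. TGACGT and TGANTCA both begin with TGA, and CAGCACC and CAGCTG both begin with CAGC. These matches are descriptions of letters in a window and not binding sites.

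The promoters of Scg3, Syp and Rims1 are shown because Scg3 and Syp fell with DNBS (below), and because of the calls of Rims1. Rims1 alone was past the threshold upward both with all libraries and without the library that stands apart. The filter kept it only through DNBS libraries, so these calls support nothing. The promoters are printed 5′ to 3′ on the strand of the gene, and capitals mark a match to a searched motif.
Scg3, chr9:75684057-75684306, minus strand: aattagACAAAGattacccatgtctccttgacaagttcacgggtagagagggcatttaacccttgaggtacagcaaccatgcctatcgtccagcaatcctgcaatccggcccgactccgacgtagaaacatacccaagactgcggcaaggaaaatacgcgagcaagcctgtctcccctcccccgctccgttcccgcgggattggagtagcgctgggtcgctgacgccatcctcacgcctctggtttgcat
Syp, chrX:7638330-7638579, plus strand: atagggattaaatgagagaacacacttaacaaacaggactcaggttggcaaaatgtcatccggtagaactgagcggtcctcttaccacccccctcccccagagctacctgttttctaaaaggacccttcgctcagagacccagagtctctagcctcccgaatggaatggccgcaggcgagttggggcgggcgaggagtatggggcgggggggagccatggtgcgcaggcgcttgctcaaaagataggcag
Rims1, chr1:22806159-22806408, minus strand: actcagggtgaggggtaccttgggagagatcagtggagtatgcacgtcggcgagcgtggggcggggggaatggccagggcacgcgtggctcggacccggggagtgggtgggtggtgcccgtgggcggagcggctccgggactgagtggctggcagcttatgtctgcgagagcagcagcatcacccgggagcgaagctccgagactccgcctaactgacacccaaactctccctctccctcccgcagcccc
The Scg3 window held 1 of the searched motifs, ACAAAG, and had a GC content of 55.6%. The windows of Syp (56.4% GC) and Rims1 (68% GC) held none of them. By GENCODE M21 Syp starts at chrX:7638471, so its RefSeq window runs past that start into the gene.

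One library stood apart and is named beside each result. In 11 libraries the 44 genes summed to 1026 to 1430 FPKM and 38 to 42 of them reached 1 FPKM, whereas in DNBS_GR159897 replicate 1 they summed to 71.9 FPKM and 20 reached 1 FPKM. That library was also lowest in enteric glia markers (33.5 FPKM summed, against 2078 to 8453) and in smooth muscle markers (315 against 2174 to 7237), and highest in epithelial markers (1706 against 0.79 to 81.5). The glial transcription factor Sox10 was at 1.3 FPKM there and at 4.63 to 247 in the others, and S100b at 1.17 against 94.0 to 288. Of the epithelial genes, Epcam was at 183 FPKM there and at 0 to 4.86 in the others, and the mucin Muc2 at 350 against 0.11 to 6.94. Annotated loci took 22.6% of its summed FPKM, against 53.8% to 95.1%. The depth of the libraries is not given by FPKM values. The labels make each library a separate sample but do not say in words that each is a separate animal, so p-values measure the spread between these samples.

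**Figure D1:**
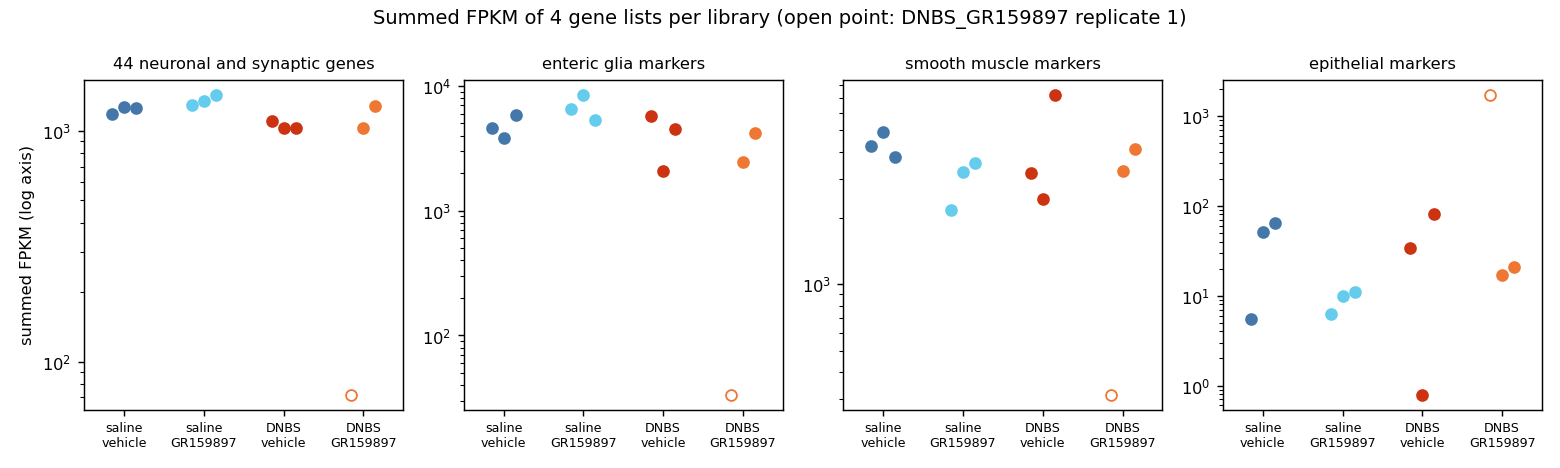
Summed FPKM (log axis) of the 44 neuronal and synaptic genes and of the markers of enteric glia, smooth muscle and epithelium, 1 point per library, by group. DNBS_GR159897 replicate 1 (open point) is lowest in the first 3 panels and highest in the fourth, and the other 11 libraries lie between 1026 and 1430 FPKM for the neuronal and synaptic genes.

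In the 6 saline libraries the levels spanned from 0.378 FPKM (Rims1, mean) to 275 FPKM (Pcsk1n, mean), with a median over the 44 genes of 6.53 FPKM. Means reached 100 FPKM for 3 genes (Pcsk1n, Sncg and Uchl1) and 10 FPKM for 20. They stayed under 1 FPKM for Map2, the dendritic microtubule protein (0.833), and Rims1. The secretory granule genes held the highest median of the 7 classes (81.5 FPKM over 4 genes), and the release machinery genes the lowest (3.32 FPKM over 6). FPKM values are per length, so these levels can be set side by side. Of the 44 genes 37 were lowest, or tied for lowest, in DNBS_GR159897 replicate 1.

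**Figure D2:**
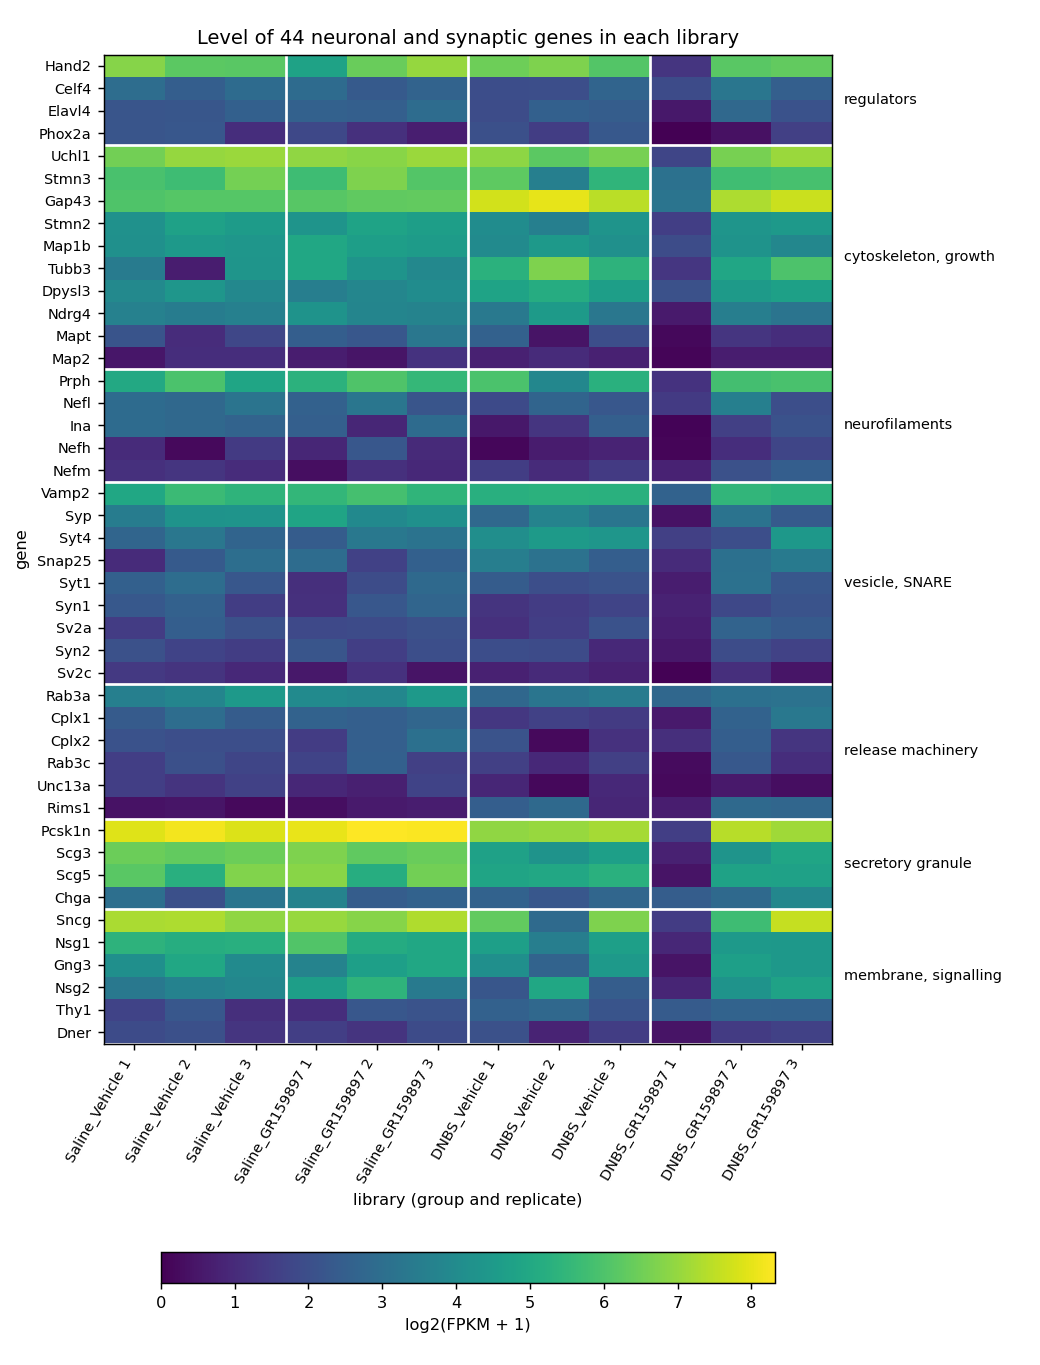
Level of each of the 44 genes as log2(FPKM + 1) (colour) in each of the 12 libraries (columns, by group), with genes grouped by role and ordered by level within a role. Pcsk1n, Sncg and Uchl1 are among the brightest rows, Gap43 is brighter in the DNBS libraries other than DNBS_GR159897 replicate 1, and that library is dark in nearly every row.

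In RNA pulled down with ribosomes from tissue, fewer cells of a type, less RNA per cell and a different yield of the pulldown cannot be told apart. This holds here and in every result below. The tag was driven by Sox10, and from which cells the RNA of these genes came was not tested. Averaged over both drug arms, 3 of the 44 genes fell with DNBS (Scg3, Syp and Rab3a), and Rims1, kept by the filter only through DNBS libraries, had a positive change past the threshold, which makes 4. Among all 12777 genes tested 9.6% changed in this contrast, 2.76% upward and 6.83% downward, so the share among the neuronal and synaptic genes (4 of 44) is near that background. The test was limma on log2(FPKM + 1) with Benjamini-Hochberg adjustment over all genes and a threshold of 0.05. The median log2 fold change of the 44 genes was -0.58, with 8 positive and 36 negative, beside -0.18 over all genes tested. Without DNBS_GR159897 replicate 1 the median was -0.17 (12 positive and 32 negative) beside -0.13 over all genes. In that fit 6 of the 44, Rims1 with the same limit among them, passed, where 9.74% of all genes did (3.9% upward and 5.84% downward): Rims1, Gap43 and Dpysl3 upward and Scg3, Syp and Pcsk1n downward. No gene list was tested as a set, and neither a broad loss nor a broad gain of the class is shown.

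The count rested on few libraries. It was 0 without Saline_Vehicle replicate 1, Saline_Vehicle replicate 3 or Saline_GR159897 replicate 1, 1 or 2 without each of 7 others, 5 without DNBS_GR159897 replicate 3, and 6 without DNBS_GR159897 replicate 1. It was 0 when all genes were tested without a filter on low values, 2 with a sex term and 2 with a pseudocount of 0.1. Over all genes the count (1226) also fell without a filter, with a sex term and without some single libraries, as given in the closing section. The drops in those fits are therefore not particular to these genes. In a comparison of levels alone, 3 genes were higher (Gap43, Dpysl3 and Rims1) and 4 lower (Scg3, Pcsk1n, Rab3a and Nsg1) in all 5 DNBS libraries other than DNBS_GR159897 replicate 1 than in all 6 saline libraries, where 3.66% of all genes were higher and 4.74% lower in this way. Rims1 was kept by the filter only through DNBS libraries, so its place in this count supports nothing.

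**Figure D3:**
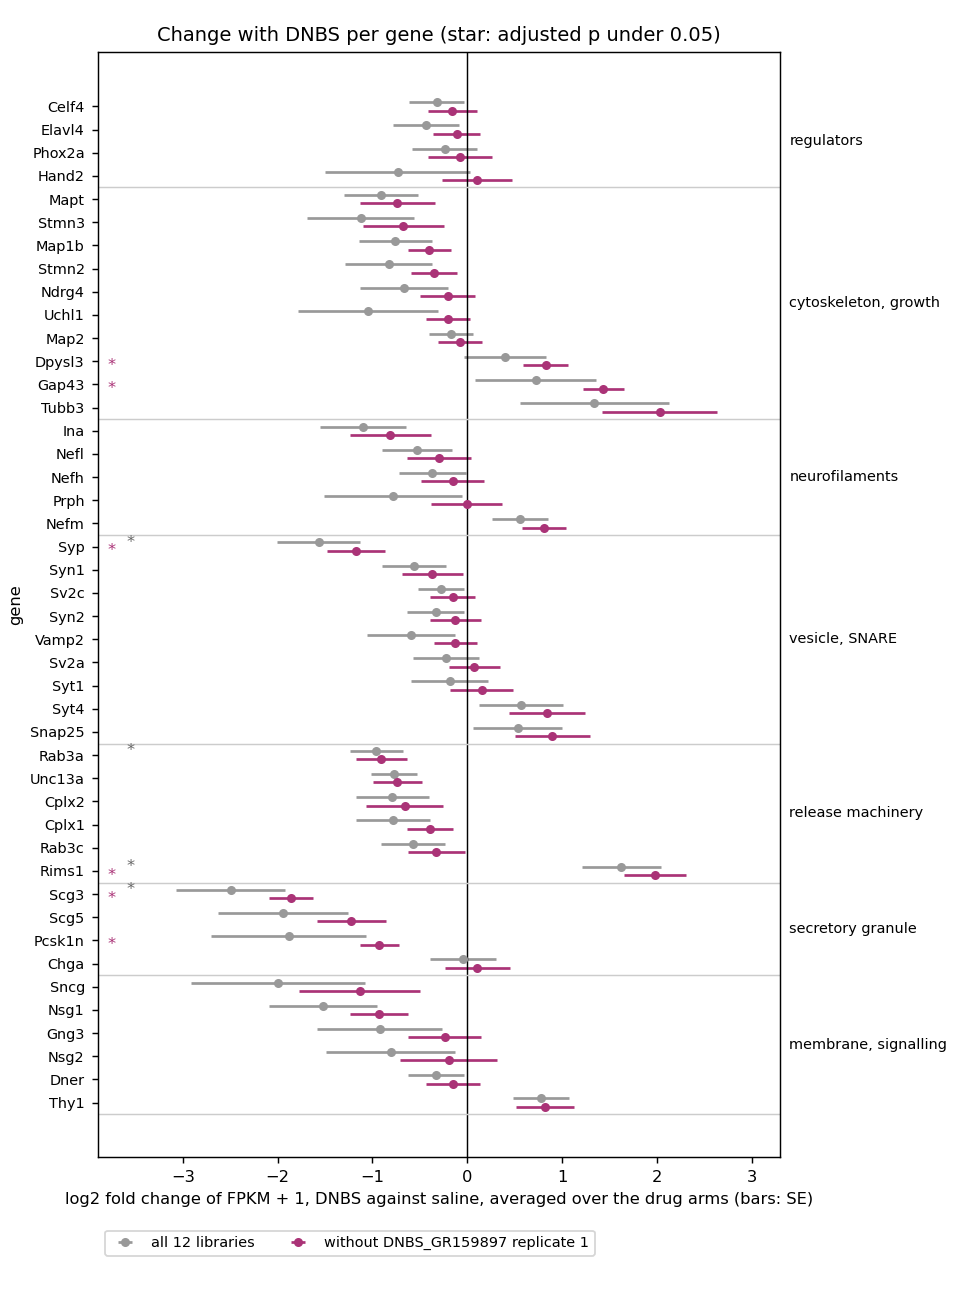
Log2 fold change of FPKM + 1 with DNBS, averaged over the drug arms, for each of the 44 genes (points, with bars of 1 standard error), with all 12 libraries (grey) and without DNBS_GR159897 replicate 1 (purple), and a star at an adjusted p under 0.05. With all libraries 36 of the points lie below 0, and Rims1, Scg3, Syp and Rab3a are starred. Without that library Rims1, Gap43, Dpysl3, Scg3, Syp and Pcsk1n are.

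Among the 4 secretory granule genes, Scg3 was lower with DNBS by the widest margin. Scg3 (secretogranin III, which brings granins to the granule membrane; chr9:75643189-75684056, minus strand, GRCm38) stood at 87.4, 79.8 and 87.0 FPKM in Saline_Vehicle and at 104, 77.8 and 84.0 FPKM in Saline_GR159897. It stood at 26.2, 18.4 and 24.8 FPKM in DNBS_Vehicle, and in DNBS_GR159897 at 0.71, 18.6 and 28.9 FPKM. All 6 DNBS libraries were below all 6 saline libraries, in both drug arms, and the group means were 84.7 ± 4.30 FPKM in Saline_Vehicle and 23.1 ± 4.17 FPKM in DNBS_Vehicle (SD, n = 3 each). Averaged over the drug arms Scg3 fell by 2.5 ± 0.58 (log2 fold change ± SE, limma adjusted p = 0.0236), and without DNBS_GR159897 replicate 1 by 1.86 ± 0.23 (adjusted p = 0.0019). It missed the threshold without Saline_Vehicle replicate 1 (limma adjusted p = 0.0556), Saline_Vehicle replicate 3 (0.0588) or Saline_GR159897 replicate 1 (0.0619), with log2 fold changes of -2.48, -2.49 and -2.44.

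Pcsk1n, which encodes proSAAS, an inhibitor of prohormone convertase 1, lay at 242, 290 and 234 FPKM in Saline_Vehicle and at 261, 319 and 306 FPKM in Saline_GR159897. It lay at 123, 131 and 147 FPKM in DNBS_Vehicle, and in DNBS_GR159897 at 1.89, 171 and 139 FPKM. All DNBS libraries were below all saline libraries. The change did not pass with all libraries (log2 fold change -1.88, limma adjusted p = 0.154). It fell by 0.93 ± 0.21 (adjusted p = 0.0197) without DNBS_GR159897 replicate 1.

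Scg5, the convertase 2 chaperone 7B2, ranged from 35.4 to 114 FPKM in saline and from 26.1 to 37.5 FPKM in the 5 other DNBS libraries, with 0.35 FPKM in DNBS_GR159897 replicate 1. The saline and DNBS values overlapped, because Saline_Vehicle replicate 2 (36.9 FPKM) and Saline_GR159897 replicate 2 (35.4 FPKM) were as low as the DNBS libraries. The averaged change of Scg5 did not pass with all libraries or without DNBS_GR159897 replicate 1. It passed with array weights (log2 fold change -1.35, limma adjusted p = 0.0282) and without DNBS_GR159897 replicate 3 (-2.3, limma adjusted p = 0.0461). With replicate 1 of that group left out it also passed when scaled to the annotated total (-1.17, limma adjusted p = 0.0492). Chga (chromogranin A), the fourth gene of this class, stood at 7.13, 3.09 and 8.31 FPKM in Saline_Vehicle and at 5.18, 3.83 and 5.65 FPKM in DNBS_Vehicle. In Saline_GR159897 it stood at 12.1, 4.52 and 5.12 FPKM and in DNBS_GR159897 at 4.46, 6.24 and 13.6 FPKM. The 4 groups overlapped, and Chga, unlike 37 of the 44 genes, was not lowest in DNBS_GR159897 replicate 1. Enteroendocrine markers moved with that library: their sum was 144 FPKM there and 0.03 to 4.03 FPKM elsewhere, and Gcg was at 9.86 FPKM there and listed at 0 in the other 11. Their part in the Chga value of that library was not tested.

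**Figure D4:**
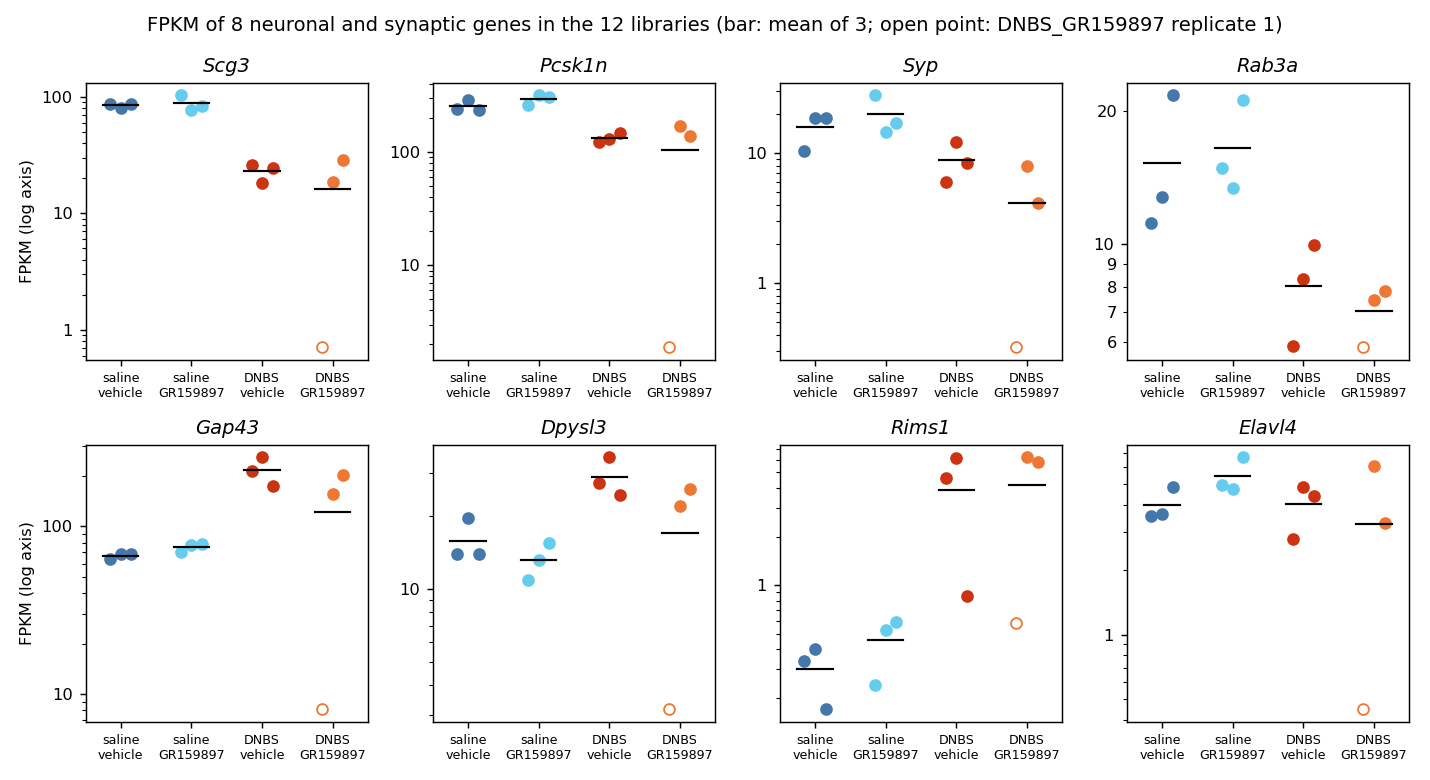
FPKM (log axis) of Scg3, Pcsk1n, Syp, Rab3a, Gap43, Dpysl3, Rims1 and Elavl4 in the 12 libraries, 1 point per library, with a bar at each group's mean of 3 and an open point for DNBS_GR159897 replicate 1. Scg3, Pcsk1n and Rab3a are lower in all DNBS libraries than in all saline libraries, Gap43, Dpysl3 and Rims1 are higher in the 5 DNBS libraries with filled points, and Elavl4 overlaps.

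Of the 6 genes of the release machinery, Rab3a fell, Rims1 was past the threshold upward with the limit on its test given above, and the other 4 did not pass. Rims1, the scaffold of the presynaptic active zone (chr1:22286251-22805994, minus strand), stood at 0.34, 0.40 and 0.17 FPKM in Saline_Vehicle and at 0.24, 0.53 and 0.59 FPKM in Saline_GR159897. It stood at 4.59, 6.18 and 0.86 FPKM in DNBS_Vehicle, and in DNBS_GR159897 at 0.58, 6.22 and 5.76 FPKM. In 4 of the 6 DNBS libraries it was at 4.59 FPKM or more, while DNBS_Vehicle replicate 3 was only just above the saline libraries and DNBS_GR159897 replicate 1 lay among them. The log2 fold change averaged over the drug arms was 1.63 ± 0.41 (limma adjusted p = 0.0308), and 1.99 ± 0.33 (adjusted p = 0.00546) without DNBS_GR159897 replicate 1.

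The pseudocount of 1 compresses changes of a gene as low as Rims1: with a pseudocount of 0.1 the log2 fold change was 2.72 (limma adjusted p = 0.0351). Rims1 did not pass without a filter (0.0784) or without 8 of the 12 libraries taken in turn (adjusted p up to 0.0787, without Saline_GR159897 replicate 1).

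Rab3a, the vesicle GTPase that binds Rim proteins (chr8:70754679-70758677, plus strand), stood at 11.2, 12.8 and 21.8 FPKM in Saline_Vehicle and at 14.9, 13.4 and 21.2 FPKM in Saline_GR159897. It stood at 5.86, 8.32 and 9.95 FPKM in DNBS_Vehicle, and in DNBS_GR159897 at 5.83, 7.47 and 7.80 FPKM. All DNBS libraries were below all saline libraries. Here DNBS_GR159897 replicate 1 (5.83 FPKM) was close to DNBS_Vehicle replicate 1. Rab3a fell by 0.96 ± 0.28 on the log2 scale (limma adjusted p = 0.0481). This is at the edge of the threshold: the adjusted p was 0.0538 without DNBS_GR159897 replicate 1, 0.0466 without DNBS_GR159897 replicate 3, 0.0568 to 0.124 without each of the other 10 libraries, and 0.112 when values were scaled to the annotated total.

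Unc13a (Munc13-1, which primes vesicles for fusion) lay at 1.92, 1.39 and 2.06 FPKM in Saline_Vehicle and at 0.84, 0.12 and 0.96 FPKM in DNBS_Vehicle. It lay at 0.92, 0.66 and 2.21 FPKM in Saline_GR159897 and at 0.16, 0.50 and 0.24 FPKM in DNBS_GR159897. DNBS was below saline in every library within each drug arm, and only across the arms did values overlap, between Saline_GR159897 and DNBS_Vehicle. The change did not pass (log2 fold change -0.77, limma adjusted p = 0.0634). The complexins, which clamp the SNARE complex, differed in pattern. Cplx1 stood at 4.25 to 6.89 FPKM in all saline libraries, at 1.56 to 2.04 FPKM in DNBS_Vehicle, and in DNBS_GR159897 at 0.53, 5.11 and 9.14 FPKM. Cplx2 ranged from 1.80 to 7.44 FPKM in saline and from 0.17 to 4.62 FPKM in the 5 other DNBS libraries. The vesicle GTPase Rab3c overlapped too, at 1.94 to 4.91 FPKM and 0.95 to 3.89 FPKM.

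Among the 9 genes of the vesicle membrane and the SNARE complex, Syp alone passed. Syp (synaptophysin, an abundant vesicle membrane protein; chrX:7638471-7653256, plus strand) stood at 10.3, 18.5 and 18.6 FPKM in Saline_Vehicle and at 27.9, 14.6 and 17 FPKM in Saline_GR159897. It stood at 5.98, 12.2 and 8.32 FPKM in DNBS_Vehicle, and in DNBS_GR159897 at 0.32, 7.94 and 4.10 FPKM. DNBS_Vehicle replicate 2 lay above the lowest saline library, so the groups overlapped by that library. Syp fell by 1.57 ± 0.43 on the log2 scale averaged over the drug arms (limma adjusted p = 0.0416), and by 1.18 ± 0.31 without DNBS_GR159897 replicate 1 (adjusted p = 0.0343), where a sex term (0.052) or scaling to the annotated total (0.0508) ended the call. With all libraries the change passed without each DNBS_GR159897 library in turn and in no other fit that left out 1 library (adjusted p 0.0504 to 0.103). A gene on the opposite strand, Gm14703, shares exon sequence with Syp, and whether the authors counted by strand is not stated.

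Snap25, the plasma membrane SNARE, stood at 1.04, 4.08 and 7.10 FPKM in Saline_Vehicle, at 10.9, 7.72 and 4.59 FPKM in DNBS_Vehicle, at 6.67, 2.07 and 4.86 FPKM in Saline_GR159897 and at 1.04, 7.44 and 9.59 FPKM in DNBS_GR159897. Its saline libraries spread from 1.04 to 7.10 FPKM and overlapped the DNBS libraries. Syt4, another synaptotagmin, stood at 5.62, 8.80 and 5.43 FPKM in Saline_Vehicle and at 16.5, 21.9 and 19.7 FPKM in DNBS_Vehicle. It stood at 4.36, 9.06 and 7.97 FPKM in Saline_GR159897 and at 1.96, 3.01 and 20.7 FPKM in DNBS_GR159897. Its vehicle groups were apart, while only 1 of the 3 DNBS_GR159897 libraries was as high as DNBS_Vehicle. The averaged change did not pass (log2 fold change 0.57, limma adjusted p = 0.424, and 0.84, adjusted p = 0.202, without DNBS_GR159897 replicate 1).

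The other vesicle genes overlapped between saline and DNBS. The vesicle SNARE Vamp2 was the most abundant of them, at 30.0 to 56.9 FPKM in saline and 37.4 to 43.99 FPKM in the 5 DNBS libraries other than DNBS_GR159897 replicate 1. In those 11 libraries the calcium sensor Syt1 lay at 1.2 to 7.53 FPKM and the synapsins, which tether vesicles to actin, at 1.24 to 5.52 FPKM (Syn1) and 0.93 to 3.56 FPKM (Syn2). The vesicle glycoproteins Sv2a and Sv2c lay at 1.23 to 5.31 FPKM and 0.37 to 1.63 FPKM. These 5 genes are low, and at this level a spread of a few FPKM within a group covers the differences between groups.

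The 10 genes of the cytoskeleton and of axon growth held 2 that rose when DNBS_GR159897 replicate 1 was left out, Gap43 and Dpysl3. Gap43, the growth cone protein of regenerating axons (chr16:42248442-42340651, minus strand), stood at 63.9, 68.7 and 68.8 FPKM in Saline_Vehicle and at 70.7, 77.6 and 78.6 FPKM in Saline_GR159897. It stood at 214, 259 and 176 FPKM in DNBS_Vehicle, and in DNBS_GR159897 at 8.14, 156 and 202 FPKM. The saline libraries lay between 63.9 and 78.6 FPKM, 5 DNBS libraries lay above all of them and DNBS_GR159897 replicate 1 below all of them. With that library the averaged change did not pass (log2 fold change 0.72 ± 0.64, limma adjusted p = 0.486). Without it Gap43 rose by 1.44 ± 0.21 on the log2 scale (limma adjusted p = 0.00377).

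In the vehicle arm alone the means of Gap43 were 67.1 ± 2.80 and 216 ± 41.9 FPKM (SD, n = 3 each). The log2 fold change of DNBS_Vehicle against Saline_Vehicle was 1.66, with a limma adjusted p of 0.481 when the spread was pooled with DNBS_GR159897 replicate 1 and of 0.0212 when it was not.

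Dpysl3, a collapsin response mediator of growing axons (chr18:43320984-43438286, minus strand), stood at 14.0, 19.5 and 13.9 FPKM in Saline_Vehicle and at 10.9, 13.1 and 15.5 FPKM in Saline_GR159897. It stood at 27.2, 34.9 and 24.5 FPKM in DNBS_Vehicle, and in DNBS_GR159897 at 3.18, 22.0 and 25.8 FPKM. Its pattern was that of Gap43, with 5 DNBS libraries above all saline libraries and 1 below. Dpysl3 rose by 0.83 ± 0.23 (log2 fold change, limma adjusted p = 0.0462) without DNBS_GR159897 replicate 1 and did not pass with it (0.40, adjusted p = 0.577). The call without that library was lost when a sex term (0.0709), scaling to the annotated total (0.0519) or a replicate block (0.0703) was added.

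Tubb3, the neuronal beta-tubulin, varied widely within groups. It stood at 10.04, 0.57 and 19.4 FPKM in Saline_Vehicle, at 39.2, 105 and 40.7 FPKM in DNBS_Vehicle, at 30.0, 18.9 and 13.8 FPKM in Saline_GR159897 and at 1.5, 29.4 and 62.5 FPKM in DNBS_GR159897. The vehicle groups were apart, and Saline_GR159897 replicate 1 lay just above the lowest of the 5 other DNBS libraries. The change did not pass (log2 fold change 1.34, limma adjusted p = 0.284, and 2.03, adjusted p = 0.0583, without DNBS_GR159897 replicate 1).

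Uchl1 (PGP9.5, a deubiquitinase used as a marker of enteric neurons) stood at 93.6, 126 and 132 FPKM in Saline_Vehicle and at 119, 73.5 and 97.2 FPKM in DNBS_Vehicle. It stood at 122, 114 and 132 FPKM in Saline_GR159897 and at 2.33, 97.3 and 133 FPKM in DNBS_GR159897. Stmn2, a microtubule regulator of axons, stood at 17.7, 25.8 and 22.6 FPKM in Saline_Vehicle, at 15.6, 11.2 and 19.0 FPKM in DNBS_Vehicle, at 19.0, 27.3 and 24.3 FPKM in Saline_GR159897 and at 1.93, 19.4 and 21.2 FPKM in DNBS_GR159897. Outside DNBS_GR159897 replicate 1 both genes kept a narrow range, within which the saline and DNBS libraries overlapped.

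Mapt, the microtubule protein tau, stood at 3.48, 1.07 and 2.44 FPKM in Saline_Vehicle and at 4.96, 0.37 and 2.99 FPKM in DNBS_Vehicle. In the antagonist arm it stood at 4.62, 3.75 and 8.74 FPKM with saline and at 0.12, 1.43 and 1.14 FPKM with DNBS. The antagonist groups were apart and the vehicle groups were not, and the averaged change did not pass (log2 fold change -0.91, limma adjusted p = 0.147). The remaining 4 genes of this class overlapped between saline and the 5 other DNBS libraries: Stmn3 ranged from 11.1 to 105 FPKM over those 11 libraries, the axonal microtubule protein Map1b from 13.5 to 30.2 FPKM, Ndrg4 from 8.15 to 22.3 FPKM and Map2 from 0.38 to 1.33 FPKM.

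None of the 5 neurofilament genes passed with all libraries or without DNBS_GR159897 replicate 1, although Nefm and Ina did with array weights. Prph (peripherin, the intermediate filament of peripheral neurons) was the most abundant, at 31.8, 60.8 and 29.0 FPKM in Saline_Vehicle and at 61.8, 13.5 and 38.3 FPKM in DNBS_Vehicle. In the antagonist arm it stood at 39.9, 64.8 and 45.6 FPKM with saline and at 1.35, 56.3 and 60.1 FPKM with DNBS. The groups overlapped widely, with no order among their medians beyond the spread.

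Ina (alpha-internexin) stood at 6.47, 6.09 and 5.32 FPKM in Saline_Vehicle, at 0.46, 1.46 and 4.71 FPKM in DNBS_Vehicle, at 4.72, 0.84 and 6.57 FPKM in Saline_GR159897 and at 0.06, 1.95 and 3.25 FPKM in DNBS_GR159897. It was lower in every DNBS_Vehicle than in every Saline_Vehicle library, and overlapped in the antagonist arm through Saline_GR159897 replicate 2 (log2 fold change -1.10, limma adjusted p = 0.137). Nefm, the medium neurofilament subunit, stood at 1.24, 1.46 and 1.09 FPKM in Saline_Vehicle, at 1.85, 1.02 and 1.65 FPKM in DNBS_Vehicle, at 0.24, 1.22 and 0.93 FPKM in Saline_GR159897 and at 0.73, 3.22 and 4.63 FPKM in DNBS_GR159897. Its 2 highest values were both in DNBS_GR159897 (log2 fold change 0.56, limma adjusted p = 0.237, and 0.81, adjusted p = 0.0506, without replicate 1 of that group). The light subunit Nefl ranged from 2.66 to 11.2 FPKM and the heavy subunit Nefh from 0.11 to 3.76 FPKM in the 11 libraries. Nefl and Nefm are neighbours whose exons overlap on opposite strands.

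Of the 6 membrane and signalling genes none passed with all libraries or without DNBS_GR159897 replicate 1. Thy1 did pass in the averaged contrast with array weights (log2 fold change 0.74, limma adjusted p = 0.0434). Nsg1, an endosomal protein of dendrites, was lower in all DNBS libraries than in all saline libraries. It stood at 41.0, 35.7 and 37.0 FPKM in Saline_Vehicle, at 25.2, 10.7 and 25.2 FPKM in DNBS_Vehicle, at 66.2, 33.8 and 29.8 FPKM in Saline_GR159897 and at 0.90, 21.7 and 20.8 FPKM in DNBS_GR159897. Its log2 fold change was -1.52 (limma adjusted p = 0.105), and -0.93 (adjusted p = 0.0741) without DNBS_GR159897 replicate 1. Sncg (gamma-synuclein) stood at 153, 157 and 121 FPKM in Saline_Vehicle, at 79.3, 6.32 and 103 FPKM in DNBS_Vehicle, at 131, 112 and 161 FPKM in Saline_GR159897 and at 1.81, 52.6 and 191 FPKM in DNBS_GR159897. For Sncg all DNBS_Vehicle libraries and DNBS_GR159897 replicates 1 and 2 were below all saline libraries, and DNBS_GR159897 replicate 3 was above all of them.

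Thy1, a surface glycoprotein of neurons and other cells, stood at 2.16, 3.79 and 1.17 FPKM in Saline_Vehicle, at 5.00, 6.05 and 3.49 FPKM in DNBS_Vehicle, at 1.13, 3.84 and 3.37 FPKM in Saline_GR159897 and at 4.25, 5.29 and 5.07 FPKM in DNBS_GR159897. DNBS_GR159897 replicate 1 was not low here, and the groups overlapped through DNBS_Vehicle replicate 3 (log2 fold change 0.78, limma adjusted p = 0.106). Fibroblast markers, another source of Thy1, summed to 42.8 to 77.1 FPKM in saline and to 64.9 to 82.4 FPKM in the 5 other DNBS libraries. In DNBS_GR159897 replicate 1 these markers summed to 21.9 FPKM, and their part in the Thy1 values was not tested. In the 11 libraries Gng3, a G protein subunit, ranged from 5.34 to 30.1 FPKM, Nsg2 from 3.66 to 41.6 FPKM and the Notch ligand Dner from 0.76 to 3.21 FPKM, with overlap of saline and DNBS for each.

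The 4 matched regulators did not pass either. Elavl4 (HuD, an RNA-binding protein of neurons) stood at 3.55, 3.64 and 4.85 FPKM in Saline_Vehicle, at 2.80, 4.87 and 4.44 FPKM in DNBS_Vehicle, at 4.98, 4.76 and 6.70 FPKM in Saline_GR159897 and at 0.45, 6.09 and 3.32 FPKM in DNBS_GR159897. Its log2 fold change was -0.43 (limma adjusted p = 0.446), and -0.11 (adjusted p = 0.814) without DNBS_GR159897 replicate 1. Phox2a, a transcription factor of autonomic neurons, stood at 3.6, 3.84 and 1.13 FPKM in Saline_Vehicle, at 3.07, 1.88 and 3.85 FPKM in DNBS_Vehicle, at 2.49, 1.23 and 0.61 FPKM in Saline_GR159897 and at 0.30 and 1.98 FPKM in DNBS_GR159897 replicates 2 and 3, and was listed at 0 in replicate 1. Hand2, a transcription factor of the sympathetic and enteric lineages, stood at 111, 74.1 and 72.8 FPKM in Saline_Vehicle, at 87.7, 103 and 67.7 FPKM in DNBS_Vehicle, at 27.0, 84.5 and 128 FPKM in Saline_GR159897 and at 1.42, 72.6 and 79.7 FPKM in DNBS_GR159897. For all 3 genes the groups overlapped. The splicing regulator Celf4 did so as well, at 2.90 to 8.55 FPKM in the 11 libraries.

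The comparison of DNBS_Vehicle with Saline_Vehicle asks what DNBS did in mice without the antagonist. By limma 0 of the 44 genes passed (5 at an unadjusted p under 0.05), where 0.321% of all genes did (12.6% at an unadjusted p under 0.05). The median log2 fold change of the 44 was -0.36, beside -0.11 over all genes tested. Without DNBS_GR159897 replicate 1, whose spread is pooled into every comparison, 2 of the 44 passed and 1.47% of all genes did. These were Gap43 upward, as given above, and Scg3 downward (log2 fold change -1.84 ± 0.31, limma adjusted p = 0.019). By levels, 5 genes were higher (Gap43, Dpysl3, Tubb3, Syt4 and Rims1) and 9 lower in every DNBS_Vehicle than in every Saline_Vehicle library, where 9.53% of all genes were higher and 14.9% lower. The 9 were Scg3, Pcsk1n, Rab3a, Unc13a, Cplx1, Nsg1, Sncg, Ina and Nefl. Rims1 among the 5 was kept by the filter only through DNBS libraries, and Unc13a among the 9 only through saline libraries. Their place in these counts supports nothing.

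The comparison of DNBS_GR159897 with Saline_GR159897 asks the same in mice given the antagonist. Here 0 of the 44 genes passed (12 at an unadjusted p under 0.05), and 1.38% of all genes did (22.7% at an unadjusted p under 0.05). Without DNBS_GR159897 replicate 1, Scg3 passed (log2 fold change -1.87 ± 0.34, limma adjusted p = 0.0462), where 0.361% of all genes did. This call was lost when a sex term (limma adjusted p = 0.086), a pseudocount of 0.1 (0.0552) or a replicate block (0.0857) was added, and stayed with scaling (0.0291). The Gap43 change in this arm turned with that library, from -0.21 with it to 1.22 without it (limma adjusted p = 0.907 and 0.0989), and was 0.225 with that library when values were scaled to the annotated total. The median of the 44 moved from -0.73 (all genes -0.27) to -0.09 (all genes -0.13).

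The antagonist was compared with vehicle in saline and in DNBS mice. In saline mice 0 of the 44 genes passed by limma, also at an unadjusted p under 0.05, and 0% of all genes did after adjustment (216 genes, 1.69%, at an unadjusted p under 0.05). The median log2 fold change of the 44 was 0.10, beside -0.03 over all genes. In DNBS mice 0 of the 44 passed (2 at an unadjusted p under 0.05), and 0% of all genes did (1039 genes, 8.13%, at an unadjusted p under 0.05). The median was -0.36 (all genes -0.21) with DNBS_GR159897 replicate 1 and 0.18 (all genes -0.06) without it, so its sign rests on that library. Without it 0 of the 44 passed in either comparison, where 0.00801% and 0% of all genes did.

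Whether the DNBS change differed between the drug arms was tested by the interaction. By limma it passed for 0 of the 44 genes (1 at an unadjusted p under 0.05) and for 0% of all genes (457 genes, 3.58%, at an unadjusted p under 0.05). With DNBS_GR159897 replicate 1 left out it also passed for 0 of the 44 (2 at an unadjusted p under 0.05) and 0% of all genes (398 genes at an unadjusted p under 0.05). The levels side by side show where the arms looked unlike: Cplx1 was at 1.56 to 2.04 FPKM in DNBS_Vehicle, and in DNBS_GR159897 at 5.11 and 9.14 FPKM replicates 2 and 3, and Syt4 was at 16.5 to 21.9 FPKM and at 3.01 and 20.7 FPKM in the same libraries. With 2 or 3 libraries per group these differences are not shown to exceed the spread.

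Other genes of neurons and synapses were read from lists chosen with earlier results of these data known. Of 22 other synaptic genes tested, 0 rose and 2 fell with DNBS averaged over the drug arms, with a median log2 fold change of -0.58. Over all genes 2.76% rose and 6.83% fell, with a median of -0.18, so this count is near the background. The 2 were Unc13b (Munc13-2, a relative of Unc13a), at -1.60 (limma adjusted p = 0.00621), and the endocytic adaptor Amph (amphiphysin), at -1.24 (limma adjusted p = 0.0464). Unc13b stood at 3.03 to 7.49 FPKM in the saline libraries and at 0.48, 0.52, 0.97, 1.07, 1.70 and 1.87 FPKM in the DNBS libraries, without overlap. Without DNBS_GR159897 replicate 1 only Unc13b passed (-1.57, limma adjusted p = 0.00728).

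Of 28 other neuronal genes 0 rose and 1 fell, Rtn1, a reticulon of the endoplasmic reticulum (-1.45, limma adjusted p = 0.0305), with a median of -0.47 over the list. Without DNBS_GR159897 replicate 1, 1 rose and 2 fell. Cartpt, the precursor of the CART peptide, rose by 2.67 (limma adjusted p = 0.00225), from 12.8 to 38.1 FPKM in saline to 74.4 to 237 FPKM in the 5 DNBS libraries. Cpe, the carboxypeptidase that trims peptides in granules, fell by 1.3 (limma adjusted p = 0.0213) and Rtn1 fell by 1.15 (limma adjusted p = 0.0192). The granin Scg2 lay at 37.8 to 57.7 FPKM in saline and at 43.9 to 63.7 FPKM in those DNBS libraries, so among granins the low values of Scg3 were not shared by Scg2.

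Of 14 genes of enteric transmitters 1 rose and 2 fell with all libraries, and 3 rose and 2 fell without DNBS_GR159897 replicate 1. Over all genes 9.6% and 9.74% passed in these fits, in either direction. Penk (enkephalin precursor) rose in both fits, by 1.89 (limma adjusted p = 0.0438) and 2.32 (adjusted p = 0.00629). Gal (galanin, a peptide known to be induced in injured neurons) rose by 2.37 (limma adjusted p = 0.00228) without that library, from 116 to 262 FPKM in saline to 690 to 1669 FPKM. Vip (vasoactive intestinal peptide) rose by 1.11 (limma adjusted p = 0.0258), also without that library. Calb2 (calretinin) fell by 2.19 (limma adjusted p = 0.0214) with all libraries and by 1.83 (adjusted p = 0.0197) without it, and Dbh (dopamine beta-hydroxylase, of sympathetic fibres) by 2.06 (adjusted p = 0.0127) and 1.80 (adjusted p = 0.0144). Both Rbfox3 (NeuN), at 0 to 1.07 FPKM, and Chat (choline acetyltransferase), at 0 to 1.41 FPKM, were near 0 throughout, although they define neurons and cholinergic neurons.

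Markers of other cells moved with DNBS in the same libraries. Of 11 enteric glia markers 0 rose and 3 fell (Sox10, Erbb3 and Ednrb), and without DNBS_GR159897 replicate 1 only Erbb3 did. Their sum was 3798 to 8453 FPKM in saline and 2078 to 5763 FPKM in the 5 other DNBS libraries. Of 9 macrophage markers 3 rose, and of 6 neutrophil markers 4 were past the threshold upward. Without that library 3 of 8 and 3 of 6 were. Ms4a7, Retnlg and Mmp9 among these markers reached 1 FPKM in DNBS libraries alone, so they entered the test only by being high there. Markers of interstitial cells of Cajal summed to 20.6 to 33.1 FPKM in saline and to 12.9 to 21.5 FPKM in the 5 other DNBS libraries, with 0 of 4 past the threshold, and without that library 1 of 3, Etv1, which fell by 0.90 (limma adjusted p = 0.033). The neutrophil sum was 0.70 to 32.6 FPKM in saline and 25.7 to 609 FPKM in the DNBS libraries, and the macrophage sum 7.16 to 18.5 FPKM and 22.5 to 71.6 FPKM. Of 11 smooth muscle, 9 epithelial and 5 fibroblast markers none passed in the averaged DNBS contrast by limma. The part of these shifts in the changes of the neuronal and synaptic genes was not tested.

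The exons of 17 of the 44 genes overlap a gene on the opposite strand and those of none overlap one on the same strand (GENCODE M21, GRCm38). Of the genes that passed in any fit, Syp (with Gm14703), Rab3a (with Mpv17l2) and Pcsk1n (with Eras) are among the 17. So are Nefm (with Nefl), Ina (with Nt5c2) and Unc13a (with Colgalt1), which passed with array weights. For these, fragments of the partner can count toward the value.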

How the data were processed

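Values are FPKM per assembled locus and library, with 2 decimals, as the authors deposited them. Per the submitters' processing notes StringTie 1.3, HISAT2 2.0, cutadapt 1.10 and FastQC 0.10.1 were used, in roles that are not stated. Not given in the sources used here are the genome build, the strand setting and the depth per library, so counting errors cannot be computed.

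An annotated Ensembl transcript was found in 24432 of 99547 loci, and the locus with the highest mean was kept per symbol (24394 symbols). Genes that reached 1 FPKM in 3 libraries or more entered 1 limma fit (3.58.1, R 4.3.3, trended and robust prior) on log2(FPKM + 1) over all 12 libraries with 4 group means. Gfap, blank in the 3 Saline_Vehicle libraries, was left out, which gave 12777 genes. Tests were two-sided, with Benjamini-Hochberg adjustment over all genes and a threshold of 0.05. A fold change is on the log2(FPKM + 1) scale, which understates the change of low genes. The procedure was run on simulated data with normal noise and the same shift in all DNBS libraries. Those data held no library like DNBS_GR159897 replicate 1, so the run cannot tell how such a library affects the calls. Alternatives were the pseudocount, the filter, scaling to the annotated total, a sex term, array weights, a replicate block and leaving out each library. Fits that combined leaving out DNBS_GR159897 replicate 1 with a second change were added after seeing the data.

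The neuronal and synaptic genes, their classes and the other lists were chosen with earlier results of these data known. Changes are given with statistics for genes past the threshold in any comparison, the gene with the smallest p per class, and the 3 with the smallest p in each direction with DNBS. Unc13b, Amph, Rtn1, Cartpt, Cpe, Penk, Gal, Vip, Calb2 and Dbh are those of their lists that passed, and Scg2 was named after its values were seen. Positions come from GENCODE M21 (GRCm38) through transcript identifiers, and promoters from RefSeq (GRCm38.p6). Tables and plots were made with Python 3.11.15, pandas 2.3.3, numpy 2.4.6 and matplotlib 3.10.9.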

Additional observations from a re-analysis of the deposited data

How the results depend on the processing

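Counts of genes that passed are given over all genes tested unless said otherwise. For the averaged DNBS contrast (1226) the count was 442 without a filter, 805 with a sex term and 3009 with array weights, and 402 to 1645 without 1 library. For DNBS in vehicle (41) it was 21 with a pseudocount of 0.1, 13 without a filter, 18 with the replicate block, 24 with a sex term and 514 with array weights, and 0 to 183 without 1 library. With DNBS_GR159897 replicate 1 left out it was 109 with a sex term, 190 when scaled to the annotated total, 123 with a pseudocount of 0.1 and 150 with the replicate block. For DNBS in the antagonist arm (176) it was 42, 18, 31, 25 and 2158 in the order of the first 5 settings, 91 when scaled, and 4 to 601 without 1 library. With DNBS_GR159897 replicate 1 left out it was 30 with a sex term, 51 when scaled, 24 with a pseudocount of 0.1 and 20 with the replicate block. For the antagonist in DNBS mice (0) it was 2 with a pseudocount of 0.1, 3 when scaled, 69 with array weights, 3 without that library and with a pseudocount of 0.1, and 0 to 6 without 1 library. For the antagonist in saline mice (0) it was 1 with a pseudocount of 0.1, 1 when scaled, 5 with array weights, 1 without that library and with a sex term, with scaling or with a pseudocount of 0.1, and 0 to 2 without 1 library. For the interaction (0) it was 2 with a pseudocount of 0.1, 1 when 1 FPKM was asked of 6 libraries, 1 when scaled, 5 with array weights, 2 without that library and with a pseudocount of 0.1, and 0 to 2 without 1 library.

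Of the 44 neuronal and synaptic genes, the 4 that passed in the averaged contrast became 2 with a pseudocount of 0.1 (Rims1 and Scg3), 0 without a filter and 2 with a sex term. The count was 10 with array weights (Nefm, Ina, Scg5 and Thy1 among them), and 0 to 6 without 1 library. The 6 without DNBS_GR159897 replicate 1 became 4 with a sex term and were 6 with scaling, a pseudocount of 0.1 or the replicate block. Gap43, Scg3 and Pcsk1n passed in all 4 of these fits, Syp in 2 and Dpysl3 in 1. Nefm (limma adjusted p = 0.0461) and Scg5 (0.0492) passed with scaling and Rab3a (0.0385) with the block. Rims1 also passed in all 4, but the filter kept it only through DNBS libraries, so its calls in any fit support nothing. The same holds for Unc13a, called with array weights and kept only through saline libraries. In DNBS against saline in vehicle mice 0 became 2 with array weights, 2 with DNBS_GR159897 replicate 1 left out together with each of the 4 added settings, and 0 to 2 without 1 library. In the antagonist arm 0 became 6 with array weights, 1 with that library left out and scaling, and 0 to 1 without 1 library. In the averaged contrast Syp had a limma adjusted p of 0.0787 with a pseudocount of 0.1, 0.0942 without a filter and 0.0653 with a sex term, and Scg3 of 0.0615 without a filter. The Gap43 change in the antagonist arm (-0.21) turned positive when scaled (0.225), with array weights (0.89), and with that library left out and a sex term (1.23), scaling (1.34), a pseudocount of 0.1 (1.23) or the replicate block (1.19), and ran from -1.02 to 1.22 without 1 library. The median over the 44 genes ran from -1.05 to 0.16 in the interaction without 1 library. Scaling moved the median of all genes by 0.15 in the averaged contrast, to -0.03. The causes of these differences were not tested.

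The replicate numbers were not taken as pairs, and with 3 libraries per group correlations cannot exclude a pairing. Same-numbered libraries of different groups had correlations of their deviations from group means of -0.0883 to 0.202 (18 pairs, 2 above 0.1). Differently numbered libraries had -0.265 to 0.223 (36 pairs, 3 above 0.1), and 5 of 12 libraries correlated best with their own number. With the number as a block 4 of the 44 genes passed in the averaged contrast. Without DNBS_GR159897 replicate 1 the fits rest on 2 libraries in that group and on a spread pooled with the other groups. FPKM values carry no depth, so low genes such as Rims1 and Unc13a have an unknown counting error.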
